A study of Mus musculus with 16 samples.

Results

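Histone acylation is controlled by a small set of proteins, and the genes for 39 of them were examined for regions that gained histone H3 lysine 9 beta-hydroxybutyrylation (H3K9bhb) on fasting. The set holds 9 acetyltransferases, 11 histone deacetylases, 7 sirtuins, 2 enzymes of acyl-CoA supply, and 10 readers with a YEATS domain or a bromodomain. The genes were taken as a named list, at their RefSeq positions in build mm10, and make up 39 of 21887 protein-coding genes on the assembled chromosomes. The data come from ChIP-seq with an antibody to the mark on occipital cortex. The mice were C57BL/6J, 35 days old by the postnatal count, and the compared states were a 48 h fast and ad libitum feeding. Each state had 4 ChIP libraries and 4 libraries of input DNA. The sources used here state no further treatment or allele for either state.

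Acyl marks are put on lysines by acetyltransferases, which draw on acyl-CoA, and are taken off by zinc-dependent histone deacetylases and by the NAD-dependent sirtuins. The acetyltransferases p300 and CBP accept several acyl-CoAs, beta-hydroxybutyryl-CoA among them, and class I deacetylases and SIRT3 have been reported to remove beta-hydroxybutyryl groups. Readers then bind the marked lysine, bromodomains mainly acetyl-lysine, YEATS domains also longer acyl groups. Beta-hydroxybutyrate is the main circulating ketone body of a fasted animal, so these genes encode the machinery around the mark that was measured.

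The authors deposited 8404 regions enriched in fasted mice and 1 region enriched in ad libitum mice. Each region carries a log likelihood ratio (log-LR) as the authors' own value. It is used below only to describe and rank regions within the fasted list, where the lowest value was 3.11. The files give no value per library, so the depth behind a region and the spread between mice are unknown. No test between feeding states was therefore possible, and counts are set beside the share of all protein-coding genes without a p-value. Since the tissue was a homogenate, a change in the mark per cell and a change in the mix of cells cannot be told apart. Among marker genes, 2 of 5 for oligodendrocytes held such a region at an end, Mbp (log-LR 6.61) and Cnp (6.52), and 1 of 9 for neurons, Syt1 (6.45). It was 0 of 4 each for astrocytes and microglia, and 0 of 5 for liver, blood and muscle. Over the 22 brain markers the share was 13.6%, against 11.9% of all protein-coding genes, and the part of the cell mix was not tested. A region marks a difference between feeding states and not expression, so these counts do not check the labelled tissue.

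Regions at gene ends were present in a larger share of the acylation genes than of genes in general. A region overlapped the 1 kb either side of a gene end in 14 of the 39 (35.9%), against 11.9% of all protein-coding genes. The 14 were the acetyltransferase genes Ep300, Crebbp, Kat2a, Kat2b and Kat6b, the deacetylase genes Hdac2, Hdac3, Hdac5 and Hdac10, the sirtuin gene Sirt3, and the bromodomain genes Brd1, Brd2, Brd9 and Brpf1. Each had 1 region there. Counted separately, a region overlapped the gene body in 14 of 39 (35.9%), against 16.4% of all protein-coding genes. Of those, 10 also belonged to the first 14, while Kat5, Hdac7, Hdac9 and Sirt5 had regions in the body only. In all, 18 of 39 (46.2%) had a region at an end or in the body, against 18.1% of all protein-coding genes, and the other 21 had neither. The single region of the ad libitum list lay on a chromosome with 0 of the 39 genes.

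**Figure D1:**
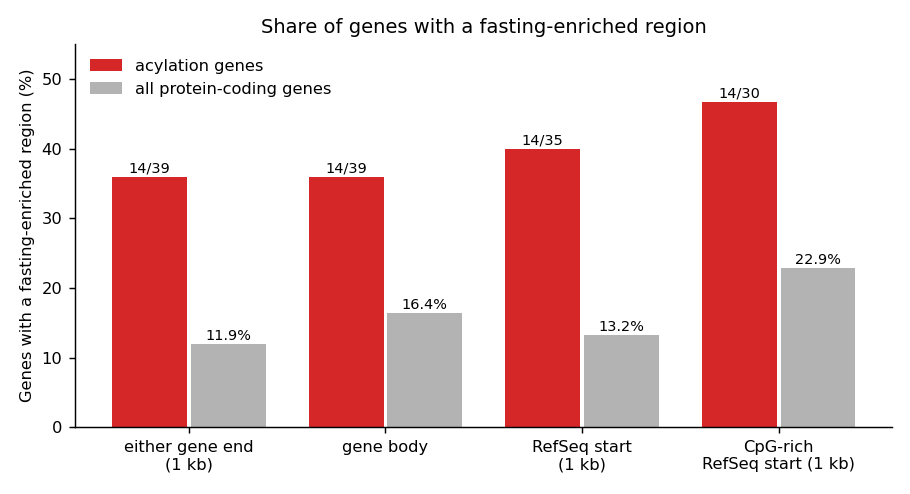
Bars give the percentage of genes with a fasting-enriched region for the acylation genes (red, with the count above) and for all protein-coding genes (grey, with the percentage above), for 4 ways of counting, the last 2 among genes with a listed start. The acylation genes stand at 35.9 to 46.7% and all genes at 11.9 to 22.9%.

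Wherever strand was known, regions at ends lay at the start of an acylation gene. RefSeq start sites were listed for 35 of the 39 genes, all but Kat6a, Hdac1, Hdac3 and Hdac10. Among these 35, 12 had a region at the annotated end where the gene begins and 0 at the far end, where 0.863% of all genes with a listed start held one. For genes in general, 95.5% of those with a region at an end had it at the start side and 7.15% at the far side, so the position is shared with the genome at large. A region lay within 1 kb of a listed start in 14 of 35 (40.0%), against 13.2% of all genes with a listed start. The 2 added in this way were Kat5 and Hdac7. Their regions sit at starts inside the gene, 1836 bp from the nearer gene end in Kat5 and 13477 bp in Hdac7, and so fell outside the windows at the gene ends.

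Promoter windows that a region reaches into are shown next, since they tie the fasting-enriched stretch to the bases around a start. Of the 300 bases from 250 before to 50 after a RefSeq start (GRCm38.p6, the build called mm10), capitals mark those inside the fasting-enriched region. A region reached into such a window in 6 genes. For each, 1 window is given, that of the region with the highest log-LR, read 5′ to 3′ on the strand of the gene. Brd2 and Brd9 each have a window at another start that a region also reaches.

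Brd2, chr17:34121698-34121997, minus strand, 142 bases in the region: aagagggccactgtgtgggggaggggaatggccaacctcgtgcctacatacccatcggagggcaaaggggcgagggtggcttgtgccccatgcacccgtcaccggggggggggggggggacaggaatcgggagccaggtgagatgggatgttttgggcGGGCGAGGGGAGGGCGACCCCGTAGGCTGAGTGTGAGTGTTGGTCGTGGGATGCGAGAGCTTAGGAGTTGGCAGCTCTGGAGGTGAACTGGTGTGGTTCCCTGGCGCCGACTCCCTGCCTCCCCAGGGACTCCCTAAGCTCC

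Sirt3, chr7:140882260-140882559, minus strand, 150 bases in the region: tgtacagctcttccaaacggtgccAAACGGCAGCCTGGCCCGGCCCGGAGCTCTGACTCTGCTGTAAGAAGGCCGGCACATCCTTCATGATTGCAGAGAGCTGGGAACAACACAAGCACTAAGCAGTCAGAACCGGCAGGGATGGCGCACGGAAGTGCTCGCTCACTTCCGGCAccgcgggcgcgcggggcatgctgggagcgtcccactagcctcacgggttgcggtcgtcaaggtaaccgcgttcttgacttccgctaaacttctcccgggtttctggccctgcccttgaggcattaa

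Brpf1, chr6:113306887-113307186, plus strand, 125 bases in the region: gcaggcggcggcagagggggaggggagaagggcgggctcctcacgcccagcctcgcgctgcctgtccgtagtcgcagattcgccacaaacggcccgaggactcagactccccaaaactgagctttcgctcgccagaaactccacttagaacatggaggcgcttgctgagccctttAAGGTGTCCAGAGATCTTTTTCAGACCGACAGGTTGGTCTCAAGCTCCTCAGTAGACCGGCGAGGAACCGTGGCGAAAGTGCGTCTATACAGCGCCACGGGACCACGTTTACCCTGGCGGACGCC

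Brd9, chr13:73937578-73937877, plus strand, 117 bases in the region: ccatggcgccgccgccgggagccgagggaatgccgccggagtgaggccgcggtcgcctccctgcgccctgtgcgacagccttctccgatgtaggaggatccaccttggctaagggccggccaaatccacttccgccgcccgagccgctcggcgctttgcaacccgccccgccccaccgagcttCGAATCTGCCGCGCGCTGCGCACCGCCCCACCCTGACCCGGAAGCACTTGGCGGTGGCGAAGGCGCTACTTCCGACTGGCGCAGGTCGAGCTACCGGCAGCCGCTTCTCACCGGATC

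Hdac2, chr10:36974294-36974593, plus strand, 23 bases in the region: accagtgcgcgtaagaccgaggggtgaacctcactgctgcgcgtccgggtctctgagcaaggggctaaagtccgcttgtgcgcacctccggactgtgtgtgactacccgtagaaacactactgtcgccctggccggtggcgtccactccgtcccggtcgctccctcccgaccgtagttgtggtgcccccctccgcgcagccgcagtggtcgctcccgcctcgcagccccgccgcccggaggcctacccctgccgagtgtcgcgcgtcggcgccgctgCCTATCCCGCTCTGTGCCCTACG

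Kat5, chr19:5609695-5609994, minus strand, 26 bases in the region: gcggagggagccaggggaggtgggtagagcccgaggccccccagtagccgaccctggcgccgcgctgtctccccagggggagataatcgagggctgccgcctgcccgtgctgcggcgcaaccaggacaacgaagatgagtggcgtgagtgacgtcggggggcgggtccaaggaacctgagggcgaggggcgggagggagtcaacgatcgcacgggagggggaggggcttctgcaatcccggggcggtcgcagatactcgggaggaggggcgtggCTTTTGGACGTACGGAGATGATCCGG

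The 6 windows were all rich in G and C, from 61.0% in Sirt3 to 71.3% in Brd9. In Brd9 the capitals hold 16 of the window's 39 CpG dinucleotides, and in Brpf1 11 of 25. In Sirt3 the region lay wholly within the window and before the start, with 9 of 23 CpG in it. For Hdac2 and Kat5 the window shows only the first edge of a region that continued into the gene.

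Most regions lay just inside the gene. Over the 14 genes with a region at a listed start there were 17 regions. Of these, 11 lay downstream of the nearest start, 3 spanned it and 3 lay upstream. The median position of the region centre was 215 bp downstream of the nearest start, against 251 bp for the 2521 pairs of gene and region among all genes with a listed start. The downstream share was 64.7% for the acylation genes and 72.3% for all genes. The spanning share was 17.6% against 10.3%, a gap that rests on Brd2, Brd9 and Brpf1.

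**Figure D2:**
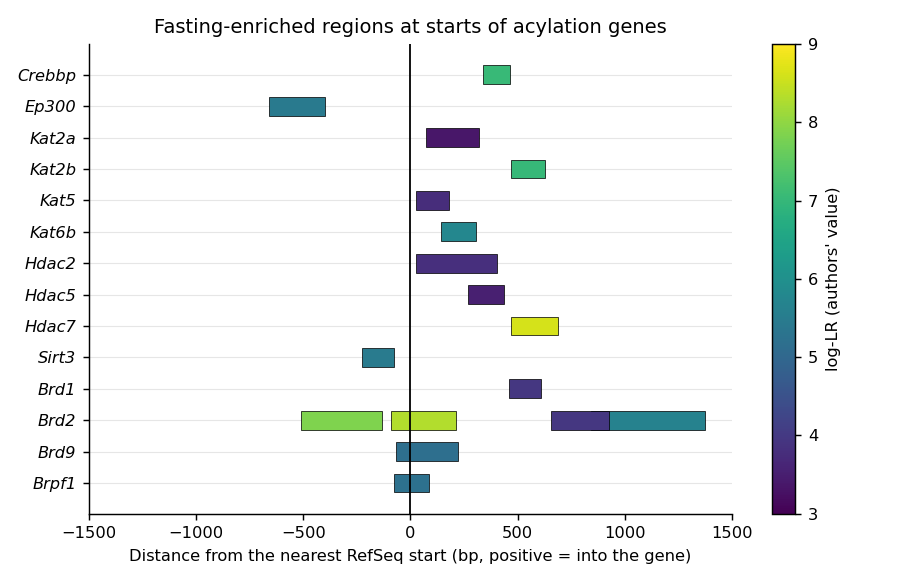
Each row is an acylation gene with a fasting-enriched region within 1 kb of a RefSeq start, the bars show the regions in base pairs from the nearest start (positive into the gene), and colour gives the log-LR. Ep300 and Sirt3 carry their region upstream, Brd2, Brd9 and Brpf1 have one across the start, and the 4 bars of Brd2 are each measured from the nearest of its 3 starts.

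**Figure D3:**
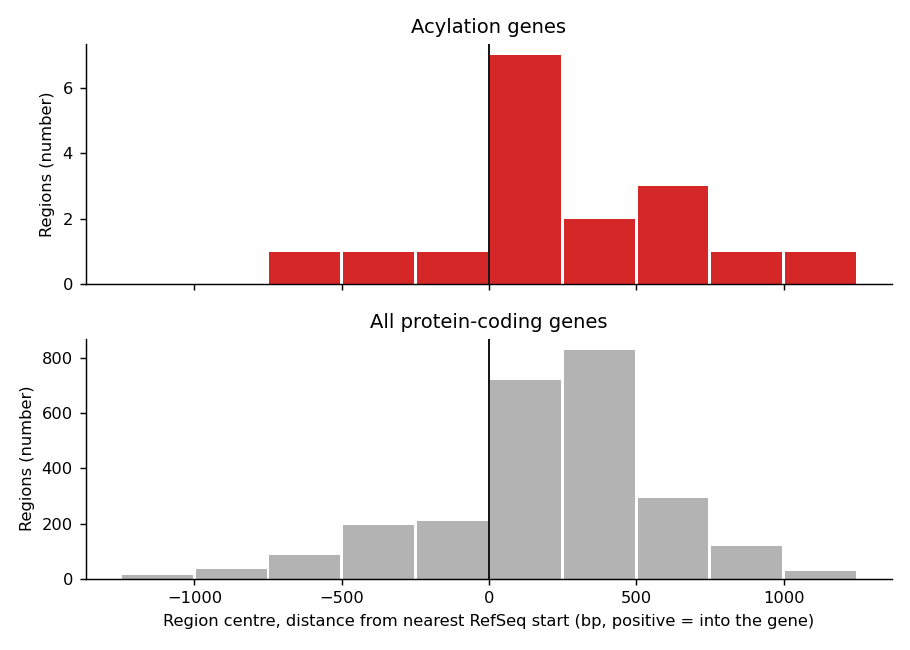
Bars count fasting-enriched regions by the distance of their centre from the nearest RefSeq start in bins of 250 bp, for the acylation genes (top, 17 regions) and for all protein-coding genes with a listed start (bottom, 2521 pairs). The fullest bin is 0 to 250 bp for the acylation genes, with 7 regions, and 250 to 500 bp for all genes, with 828.

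Among the writers, 6 of 9 genes had a region at an end or in the body, a measure that 18.1% of all protein-coding genes met. Both genes of the p300 and CBP pair were among them. Crebbp, which encodes CBP, had the highest log-LR of the acetyltransferase genes, 7.05, in a region of 125 bp at chr16:4212939-4213063. The region begins 341 bp after the listed start and lies 894 bp from the gene end. Its log-LR was at least that of 87.6% of regions at protein-coding gene ends. The region of Ep300, which encodes p300, had a log-LR of 5.45 and lay upstream of the gene, at chr15:81585552-81585816, 393 bp from its outer end. It touched no other annotated gene. The paired genes thus carry regions on opposite sides of their starts.

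The 2 GCN5-related writers also both had one, with very different values. Kat2b, which encodes PCAF, had a log-LR of 7.03 at chr17:53567441-53567598, beginning 470 bp after its nearest listed start. Kat2a, which encodes GCN5, a catalytic subunit of the SAGA and ATAC complexes, had 3.36 at chr11:100712147-100712393. That was the lowest value of any region at these genes, and 1.38% of the fasted list had a log-LR at or below it.

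The MYST family of acetyltransferases was split. Kat6b, which encodes a writer that works with BRPF proteins, had a log-LR of 5.77 at chr14:21499930-21500089, inside the first 304 bp after its nearest start. Kat5, the TIP60 enzyme of the NuA4 complex, had 3.76 at chr19:5609565-5609720, in the body and 24 bp after a start. Kat6a, the close relative of Kat6b, had no region within 206104 bp. Kat7, which encodes HBO1, had none within 280500 bp. For Kat8, which encodes MOF, a writer of H4 lysine 16 acetylation, the nearest lay 36372 bp away.

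Among the erasers, 8 of 18 genes had a region at an end or in the body, against 18.1% of all protein-coding genes. In class I, whose nuclear enzymes form the core of the Sin3, NuRD, CoREST and NCoR complexes, the members differed. Hdac2 had a region of 377 bp from 27 bp to 403 bp after its listed start, at chr10:36974571-36974947, with a log-LR of 3.81. Hdac1, its partner in the Sin3, NuRD and CoREST complexes, had none within 1 kb. The nearest to Hdac1 was 2058 bp away, with a log-LR of 3.998, and lay 319 bp from an end of Marcksl1. The region counted for Hdac3, the catalytic subunit of the NCoR complex, had a log-LR of 6.48 at chr18:37955398-37955706. It lay outside Hdac3, 383 bp from its end, and inside Rell2. Hdac8, on the X chromosome, had none within 943984 bp.

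Class IIa enzymes shuttle between nucleus and cytoplasm in neurons and act largely as corepressors. Hdac7 had the highest log-LR of any region at the 39 genes, 8.62, at chr15:97830809-97831025. This region began 470 bp after one of the 4 listed starts of Hdac7, and at least equalled 95.4% of the regions at protein-coding gene ends in log-LR. It also overlapped the annotated gene Gm33636. Hdac5 had 3.53 at chr11:102229737-102229901, beginning 271 bp into the gene. Hdac9, the longest of the set at 869516 bp, had 2 regions in its body, with log-LR values of 4.60 and 4.52. They began 183193 and 9698 bp from the nearest start, so the second lay near the start for a gene of this length. Hdac4, 266924 bp long, had none within 277780 bp.

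The remaining deacetylase genes gave 1 region. For Hdac10, a class IIb gene whose enzyme acts on polyamines, the log-LR was 3.44 at chr15:89122741-89122867. This region lay outside Hdac10 and inside its neighbour Tubgcp6, a gamma-tubulin complex gene, with its centre 346 bp after a listed start of Tubgcp6. Hdac6, which encodes a cytoplasmic tubulin deacetylase, had none within 197399 bp, and Hdac11, the only class IV gene, none within 110511 bp. Hdac6 and Hdac8 are on the X chromosome, where 0.725% of genes had a region at an end.

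Of the 7 sirtuin genes, 2 had a region at an end or in the body, against 18.1% of all protein-coding genes, and 1 of the 2 lay outside the sirtuin gene. That of Sirt3, which encodes the main mitochondrial deacetylase, had a log-LR of 5.46 at chr7:140882386-140882535 and lay before the start. It overlaps the beginning of Psmd13, a proteasome subunit gene that runs the other way, with its centre 66.5 bp into Psmd13. Sirt5, which encodes a mitochondrial desuccinylase, had a region with a log-LR of 5.35 inside the gene, 21405 bp from its start. The other 5 had none. Sirt7, a nucleolar sirtuin, had one 7656 bp away, Sirt2 20130 bp, Sirt6 23695 bp and Sirt4 40859 bp away. Sirt1, which encodes a nuclear deacetylase linked to fasting responses in other tissues, had none within 173998 bp.

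The 2 genes of nuclear acetyl-CoA supply had no region at an end or in the body. The share over all protein-coding genes was 18.1%. At such a share most genes lack a region, so the lack in these 2 does not set them apart. For Acly, the ATP-citrate lyase gene, the nearest was 3625 bp away with a log-LR of 5.10, at 55 bp from an end of Klhl11. Acss2, which encodes the acetyl-CoA synthetase that recycles acetate in neuronal nuclei, had none within 129338 bp.

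The 2 kinds of reader differed in count. All 4 YEATS reader genes lacked a region, while 4 of 6 bromodomain genes had one at an end. The share over all protein-coding genes was 11.9% for the ends, and 18.1% with the body included. At such shares most genes lack a region, so 0 of 4 does not set the YEATS genes apart. Among the YEATS genes the nearest region was 26140 bp away for Mllt3, which encodes AF9, and 127604 bp away for Mllt1, which encodes ENL. For Yeats2, of the ATAC complex, it was 43064 bp away, and for Yeats4, which encodes GAS41, 156572 bp. The difference between 0 of 4 and 4 of 6 genes was not tested.

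Brd2 held more regions than any other gene of the set. Its product is a BET protein that binds acetylated H4. Within 10796 bp the gene had 4 regions, with log-LR values of 5.64, 7.85, 3.96 and 8.30 in order along chromosome 17. The last of them, chr17:34121537-34121839, spanned a start and is the one shown in capitals above. Of 10103 protein-coding genes under 15 kb, 9 had 4 or more regions in the body, Brd2 among them. Part of Brd2 is also annotated as H2-DMa, and 3 of its 4 regions overlap both annotations.

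The other bromodomain genes had 1 region each or none. Brpf1, which encodes the scaffold of the KAT6 complexes, had a log-LR of 5.22 across its start at chr6:113307062-113307223. Brd1, which encodes a related scaffold that works with HBO1, had 3.94 at chr15:88733612-88733761, beginning 458 bp after its listed start. Brd9, a subunit gene of the non-canonical BAF remodelling complex, had 5.16 at chr13:73937761-73938047. This region also overlapped Trip13, which runs the other way, at the end where that gene begins. Brd3, another BET gene, had none within 378805 bp, and Brd7, of the PBAF complex, none within 335022 bp. The scaffold genes Brd1 and Brpf1 and the writer gene Kat6b each had a region, while Kat6a and Kat7, which encodes the HBO1 partner of Brd1, did not. Whether regions go with shared membership of a MYST complex was not tested.

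**Figure D4:**
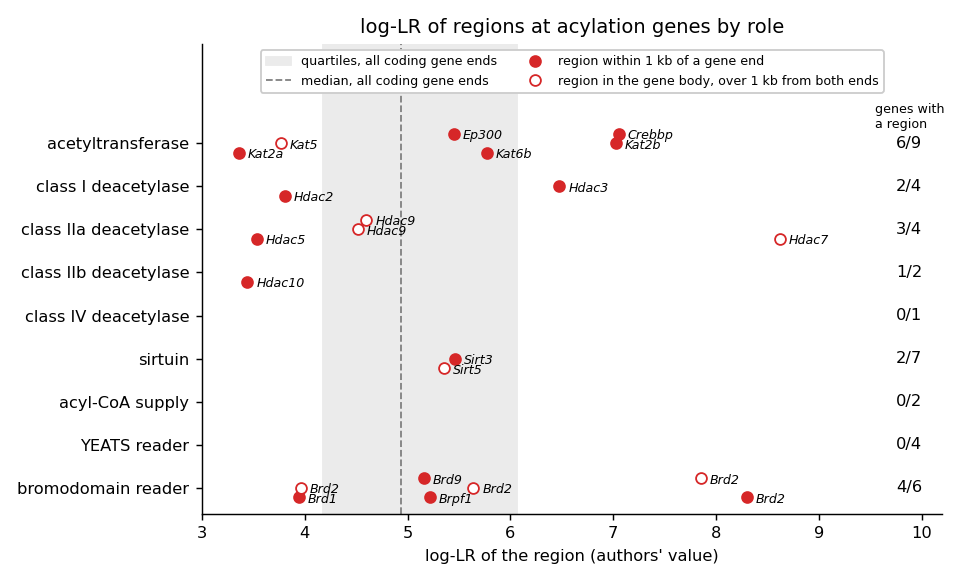
Each point is a fasting-enriched region at an acylation gene, placed by its log-LR (x axis) and the role of the gene (y axis), filled within 1 kb of a gene end and open deeper in the body, with the number of genes that have a region at the right. The grey band runs from 4.18 to 6.07, the quartiles of regions at all protein-coding gene ends, and the dashed line is their median of 4.94. The highest points are Hdac7 at 8.62 and Brd2 at 8.30.

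In log-LR and width, the regions at the ends of acylation genes lay among those at other gene ends. The 14 regions had a median log-LR of 5.33 and a range of 3.36 to 8.30. For the 2474 regions at all protein-coding gene ends the median was 4.94, with quartiles at 4.18 and 6.07. Median width was 164 bp, from 125 to 377 bp, against 205 bp for all. A log-LR of 10 was reached at none (0) of the 39 genes, against 0.183% of all protein-coding genes at an end and 0.567% in the body.

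Regions shared with a neighbour account for 4 of the 14. They are those of Hdac3 with Rell2, Hdac10 with Tubgcp6, Sirt3 with Psmd13 and Brd9 with Trip13. The first 3 lie outside the acylation gene itself. Among all 2474 regions at protein-coding gene ends, 364 touched the ends of more than 1 such gene. Without shared regions the count was 10 of 39 (25.6%), against 8.85% of all genes. The gene to which a shared region belongs cannot be told from the files.

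Gene length bears on the count in the body, since a longer gene offers more room. The acylation genes had a median length of 29815 bp, against 17169 bp for all protein-coding genes. Under 10 kb, 2 of 6 had a region in the body, against 7.42% of all genes of that length. From 10 to 30 kb it was 5 of 14, against 13.5%, and from 30 to 100 kb 3 of 12, against 22.6%. Over 100 kb it was 4 of 7, against 40.7%. The share among acylation genes was thus above that of all genes in each class, by the least from 30 to 100 kb, with 6 to 14 genes in a class. Away from the ends the counts thinned. When 1 kb at each end was left out, 6 of 39 genes (15.4%) still had a region in the body, against 7.80% of all genes. They were Hdac7, Hdac9, Kat5, Sirt5, Brd2 and Crebbp, whose region crosses the 1 kb limit.

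Promoters rich in CpG were common among the acylation genes. A CpG observed to expected ratio of at least 0.6 in any of a gene's windows was found for 30 of 35 genes (85.7%), against 50.9% of all genes with a listed start. All 14 genes with a region at a start were among these 30, but the region need not lie at the CpG-rich start. In Brd2 the window shown above, at the region of log-LR 8.30, had a ratio of 0.466, and the gene counts through its other starts. Within CpG-rich starts, 14 of 30 acylation genes had a region (46.7%), against 22.9% of all such genes. At gene ends it was 12 of 30 (40.0%), against 20.0%. The background within CpG-rich starts was thus higher than that of all genes, and the share of the acylation genes was above both. The 5 genes with a lower ratio were Hdac9, Hdac8, Sirt5, Acly and Kat8, and none (0) had a region at a start. Among all genes with a listed start the share was 13.2%, and it is lower for those below the limit, since CpG-rich ones stood at 22.9%. The 0 of 5 therefore does not set these genes apart from others with a low ratio. Among CpG-rich genes without a region were Brd3 with a ratio of 1.10, Sirt1 with 1.09, Brd7 with 1.03 and Mllt1 with 1.02, so a high ratio did not go with a region in every case. The part of CpG content in the result was not tested.

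**Figure D5:**
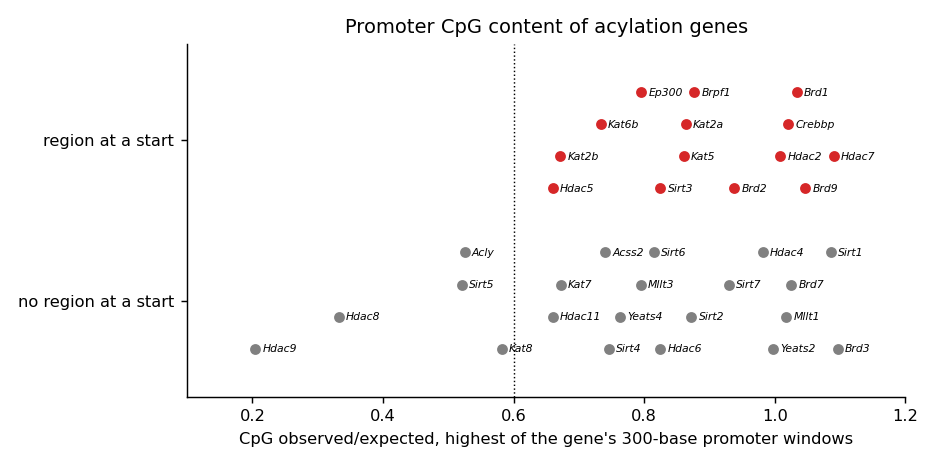
Each point is an acylation gene with a listed RefSeq start, placed by the highest CpG observed to expected ratio of its 300-base promoter windows, in rows for genes with a region at a start (14, top) and without one (21, bottom). The dotted line is the limit of 0.6, and the 14 genes with a region lie to its right, between 0.66 and 1.09.

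Motifs were searched on both strands of the same windows, of which the acylation genes have 49 and all protein-coding genes 21263. The GC box GGGCGG was in 33 of 49 windows (67.3%), against 46.2% of all. It was in 15 of 24 windows of genes with a region at a start and in 18 of 25 windows of genes without. CCAAT was in 4 of 24 against 15 of 25 windows in that same order, and in 38.8% of all 49, against 38.2% of all promoters. The E-box CACGTG was in 3 of 49 (6.12%), against 7.84%. The letters GCATGCGC, part of the NRF1 motif, were in 4 of 49 (8.16%), against 3.52%. TATAAA was in 2 of 49 (4.08%), against 12.6%. The CRE TGACGTCA was in 0 of 49, against 2.23%. No motif contains another. A gene with several starts enters with several windows, 4 for Hdac7 and 3 for Brd2, and such windows can overlap. The windows are therefore not independent, and the split by a region at a start was not tested. A match describes these letters and is no evidence of binding.

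Partner genes of the acylation enzymes were counted in the same way. Of 148 genes of the complexes and of acyl-CoA supply outside the set, 42 (28.4%) had a region at an end, against 11.9% of all protein-coding genes, and 51 (34.5%) in the body, against 16.4%. The SAGA and ATAC subunits, which carry GCN5 and PCAF, had one in 9 of 22, led by Taf9 (log-LR 6.52), Tada2b (5.68) and Tada1 (5.36). The Sin3 complex, which carries HDAC1 and HDAC2, had one in 5 of 15, led by the histone chaperone gene Rbbp4 (7.06), Ing2 (5.60) and Arid4b (5.13). NuRD had 4 of 11, with Mta1 (8.60), Gatad2a (6.50) and Cdk2ap1 (5.35) highest. These counts include regions shared with a neighbour. The regions given for Taf9, Tada2b, Rbbp4 and Arid4b also lay within 1 kb of an end of another protein-coding gene, as did most of the unnamed SAGA and ATAC regions. Those given for Tada1, Ing2, Mta1, Gatad2a and Cdk2ap1 did not.

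The corepressor and MYST groups given next had a region at an end in shares near the 11.9% of all protein-coding genes. CoREST had 1 of 7 (14.3%), Rcor3 (5.52). NuA4 had 2 of 15 (13.3%), Morf4l1 (4.96) and Mbtd1 (3.67), and MSL and NSL had 1 of 9 (11.1%), Msl2 (4.28). The ING and JADE partners of HBO1 and MOZ had 0 of 5, which at such a share does not set them apart. In the body the counts were 1 of 7 for CoREST, 3 of 15 for NuA4 and 1 of 5 for these partners. For MSL and NSL the body count was 4 of 9 (44.4%), against 16.4% of all protein-coding genes.

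Elongation factors that bind the YEATS readers had a region at an end in 4 of 10, against 11.9% of all protein-coding genes. The highest were Aff4 (6.28), a scaffold of the super elongation complex, Cdk9 (5.14), its kinase, and Ell2 (4.44). Other genes of acyl-CoA and NAD supply had one in 6 of 11, with Slc25a1 (4.80), the mitochondrial citrate carrier gene, Nampt (4.71), the rate-limiting NAD salvage enzyme gene, and Dlat (4.40), of the pyruvate dehydrogenase complex, highest. Other acetyltransferases had 4 of 11, led by Gtf3c4 (7.09, shared with an end of Ddx31), Ncoa1 (3.85) and Ncoa2 (3.67). Other bromodomain and PHD readers had 5 of 27, led by Brwd1 (5.80), Brpf3 (5.33) and Dpf2 (4.51). With 5 to 27 genes in each of these groups, 1 gene more or less moves a share widely.

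Genes of the set without a region were not all far from one. For the 21, the gap from the gene to the nearest fasting-enriched region had a median of 128 kb and ran from 2.06 to 944 kb. The 17920 protein-coding genes with neither kind of region had a median gap of 99.9 kb.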

How the data were processed

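The libraries were H3K9bhb ChIP and input DNA from mouse cortex. The submitters' processing notes name Bowtie2, MACS2 and mm10 but give neither version nor role. The deposited log-LR, per the file headers, is used as a score. On its log base and cutoff, the depth scaling and any pooling of libraries, nothing is given in the sources used here. Without counts in the lists, depth is unknown.

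File starts were taken as counted from 0, and positions are given from 1. Genes, starts and promoter sequences came from RefSeq tables of GRCm38.p6. Starts were listed for 17492 of 21887 protein-coding genes and for 35 of the 39 members. Any overlap with the window counted. The members, lists and settings were chosen with earlier results of these data known. Every member is named. In each partner group up to 3 genes with the highest log-LR at an end are named. Promoters are shown where a region overlapped the 300-base window, 1 window per gene, at the region of highest log-LR. Shares describe genes and are not replicates of mice. The CpG limit was chosen after seeing the data. One partner group and some genes that the rule takes are left out of the text. The overlap step was tested on simulated data with planted regions. Alternatives varied the window, overlap rule, log-LR limit, merging, shared regions, start counting and background. Python 3.11.15, numpy 2.4.6, pandas 2.3.3 and matplotlib 3.10.9 were used.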

Additional observations from a re-analysis of the deposited data

How the results depend on the processing

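The count of acylation genes with a region at an end, 14, stayed between 10 and 16 with a 500 bp or a 3 kb window, other rules of overlap, merging, starts counted from 1, shared regions left out, gene starts only and other backgrounds. It was 9 (23.1%, against 5.90% of all genes) at a log-LR of at least 5, 0 at a log-LR of at least 10 (against 0.183%), and 0 at far ends only. The number of regions at ends was likewise 9 and 0 at the log-LR limits of 5 and 10. So was the count at RefSeq starts, where all genes stood at 6.62% and 0.189%. The 3 kb window added Kat5 and Hdac1. The count in the gene body, 14, was 8 at a log-LR of 5 (20.5%, against 8.80% of all genes) and 0 at 10 (against 0.567%). Without 1 kb at each end it was 6 (15.4%, against 7.80%). At a log-LR of 10, 0 of 39 is near the share of all genes. Higher limits keep fewer regions and the trimmed body is shorter by construction. The median log-LR at ends, 5.33, lay between 4.55 and 5.77 in the other settings. The CpG-rich background was chosen after seeing the data. At a log-LR of 10 no median could be had. No paired analysis was possible because neither file gives values for single libraries, and leaving out replicates was not run for the same reason.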
